A study of Mus musculus with 8 samples.

Results

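The mRNAs of 10 amino acid transporters were followed in activated mouse B cells with and without the translation factor EIF4A1. They were chosen by gene symbol from the 53242 genes in the deposited tables and are Slc3a2, Slc7a5, Slc7a6, Slc7a11, Slc7a1, Slc38a1, Slc38a2, Slc1a4, Slc1a5 and Slc43a1. The choice was made with earlier results of these data known. Amino acids cross the plasma membrane mainly through carriers. A resting lymphocyte carries few of them, and activation by antigen or CD40 ligand is known to raise several, since a cell that grows and divides needs leucine, glutamine, arginine and serine for protein and nucleotide synthesis. Some carriers work alone, some are driven by the sodium gradient, and some are light chains that reach the membrane only when bound to the heavy chain CD98hc, which Slc3a2 encodes.

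Splenic B cells came from C57BL/6 mice aged 8 to 12 weeks. Control mice were Eif4a1+/+ CD23-cre and 4A1 KO mice were Eif4a1fl/fl CD23-cre, so both genotypes carried the Cre, which is driven by the Cd23 gene of maturing B cells. All cells received IL4 (40 ng/ml) during 24 h on irradiated CD40LB, a feeder line that expresses CD40 ligand and the survival factor BAFF, and the feeders were then removed with an antibody to H-2Kd. Each genotype had 4 libraries, numbered 1 to 4. Batch A held replicate 1 (male) and replicate 2 (female) of each genotype, and batch B held replicate 3 (male) and replicate 4 (female). The study left replicate 1 of both genotypes out of its differential expression because of reduced viability, and here too the fits use replicates 2 to 4 (n = 3 per genotype), with all 8 libraries given beside them.

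Libraries held 31727557 to 43210858 counts. Eif4a1, the targeted gene, lay at 828, 747, 936 and 888 CPM (the count scaled to the library total) in control libraries 1 to 4 and at 593, 557, 635 and 691 CPM in 4A1 KO libraries 1 to 4. The groups did not overlap, and the log2 fold change was -0.44 (SE 0.05, adjusted p = 1.15e-04 by edgeR's quasi-likelihood test). These counts cover the whole gene, not the floxed exons alone. The paralog Eif4a2 rose by 0.64 (SE 0.05, adjusted p = 3.48e-05). The B cell markers summed to 2373 to 2589.8 TPM (abundance scaled to transcript length and depth) in control and 1727 to 1934 TPM in 4A1 KO libraries. Of their 6 genes 3 fell, the B cell receptor genes Cd79a and Cd79b and the inhibitory receptor Cd22, while Ms4a1 had a log2 fold change of 0.07. In bulk RNA, fewer cells of a type and less RNA per cell cannot be told apart.

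All 10 transporters passed the filter on low counts. Calls needed a log2 fold change beyond 0.5 in either direction together with an adjusted p below 0.05. By this rule 4 transporters increased in 4A1 KO cells (Slc1a4, Slc7a1, Slc7a5 and Slc3a2) and 0 decreased, where 11.6% of the 14218 tested genes increased and 13.7% decreased. In edgeR's test 0 transporters were lower even at an unadjusted p under 0.05, and DESeq2 also called 0 lower. A further 3 (Slc38a2, Slc7a6 and Slc1a5) passed the adjusted p with a smaller increase. At any fold change 26.3% of tested genes were higher and 26.7% lower at that adjusted p. The other 3 (Slc38a1, Slc43a1 and Slc7a11) did not pass it. The median log2 fold change of the transporters was 0.31, against 0.0066 for all tested genes. Since the transporters were chosen with earlier results known, these counts and medians are descriptions and no test of the set.

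**Figure D1:**
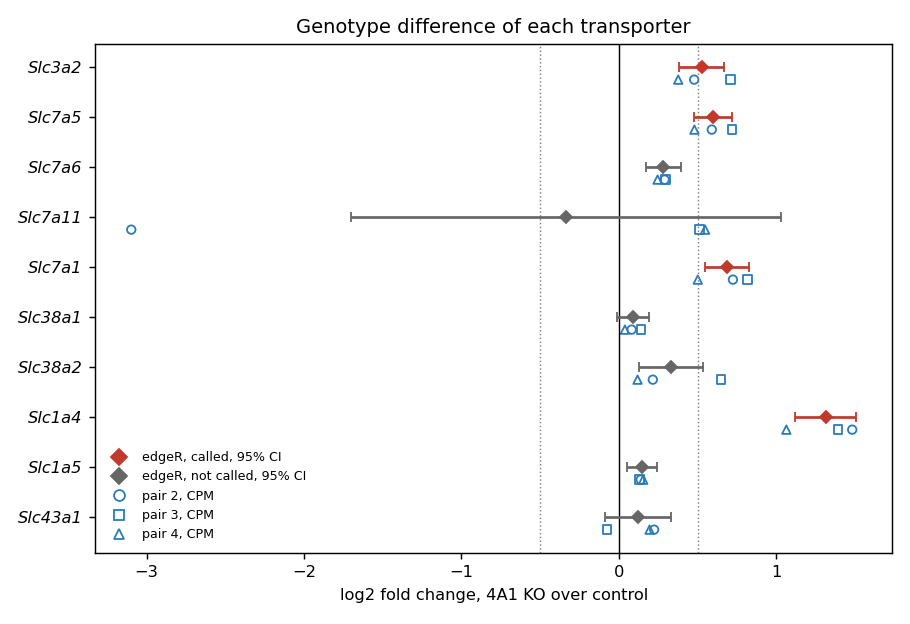
Log2 fold change (4A1 KO over control) of each transporter on the horizontal axis, one transporter per row. Diamonds and bars are edgeR estimates with 95% confidence intervals from replicates 2 to 4 (red when called), open symbols are the log2 CPM ratios of pairs 2, 3 and 4, and dotted lines mark the fold threshold of 0.5. Slc1a4 lay farthest to the right at 1.31, and the interval of Slc7a11 ran from -1.70 to 1.03.

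Slc3a2, on chromosome 19 (chr19:8684245-8701108 of GRCm39, minus strand, 9 exons in the canonical transcript, ENSMUSG00000010095), encodes the heavy chain that all CD98 transporters share. It lay at 376, 309, 267 and 297 CPM in control libraries 1 to 4 and at 548, 429.9, 437 and 386 CPM in 4A1 KO libraries 1 to 4. Every 4A1 KO library was above every control library, but 4A1 KO 4 was only slightly above control 1. The increase was 0.53 (SE 0.06, 95% confidence interval 0.38 to 0.67, adjusted p = 1.77e-04), or 1.44-fold. It lay just past the fold threshold, and without replicate 3 it was 0.43 and no longer called. Parts of its transcript match at least 126 other genes at 95% identity or more, over at most 182 nucleotides in the matches found.

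Slc7a5 (chr8:122607884-122634433, minus strand, 10 exons, ENSMUSG00000040010) encodes LAT1, the light chain that exchanges internal glutamine for leucine and other large neutral amino acids. It had 458, 451, 465 and 485 CPM in control libraries and 759.6, 679, 764 and 677 CPM in 4A1 KO libraries. The control libraries lay close together, and all 4A1 KO libraries were well above them. Slc7a5 increased by 0.60 (SE 0.05, interval 0.48 to 0.72, adjusted p = 3.86e-05), or 1.52-fold.

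Slc7a6 (chr8:106895139-106925346, plus strand, ENSMUSG00000031904), the y+LAT2 light chain that exports arginine in exchange for neutral amino acids, moved less. Its CPM were 86.0, 85.5, 96.0 and 96.9 in control and 106, 105, 118 and 115 in 4A1 KO libraries, again without overlap. The same-numbered pairs differed by 0.31, 0.29, 0.30 and 0.25 on the log2 scale, the narrowest range among the transporters that did not overlap. The fitted difference was 0.28 (SE 0.05, adjusted p = 0.00129), below the fold threshold.

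Slc7a11 (chr3:49846975-50398070, minus strand, ENSMUSG00000027737), the xCT light chain that imports cystine in exchange for glutamate, was close to undetected. Control libraries held 12, 18, 10 and 9 counts and 4A1 KO libraries 7, 2, 14 and 13 counts. The highest and the lowest of these were both in replicate 2, and the groups overlapped. The fitted difference of -0.34 had an interval from -1.70 to 1.03 (adjusted p = 0.667), so a change in either direction was not detectable at this depth, and without replicate 2 its sign turned (0.53). Fibroblast markers summed to 20.01 TPM in control 2, the library with 18 counts, and to between 4.44 and 12.0 TPM in the other 7 libraries, with Postn and Lum at 0 in all 8. Their part in these counts was not tested. The gene overlaps 3 others on its strand, and its transcript matches other genes over up to 375 nucleotides, so its few counts are uncertain.

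**Figure D2:**
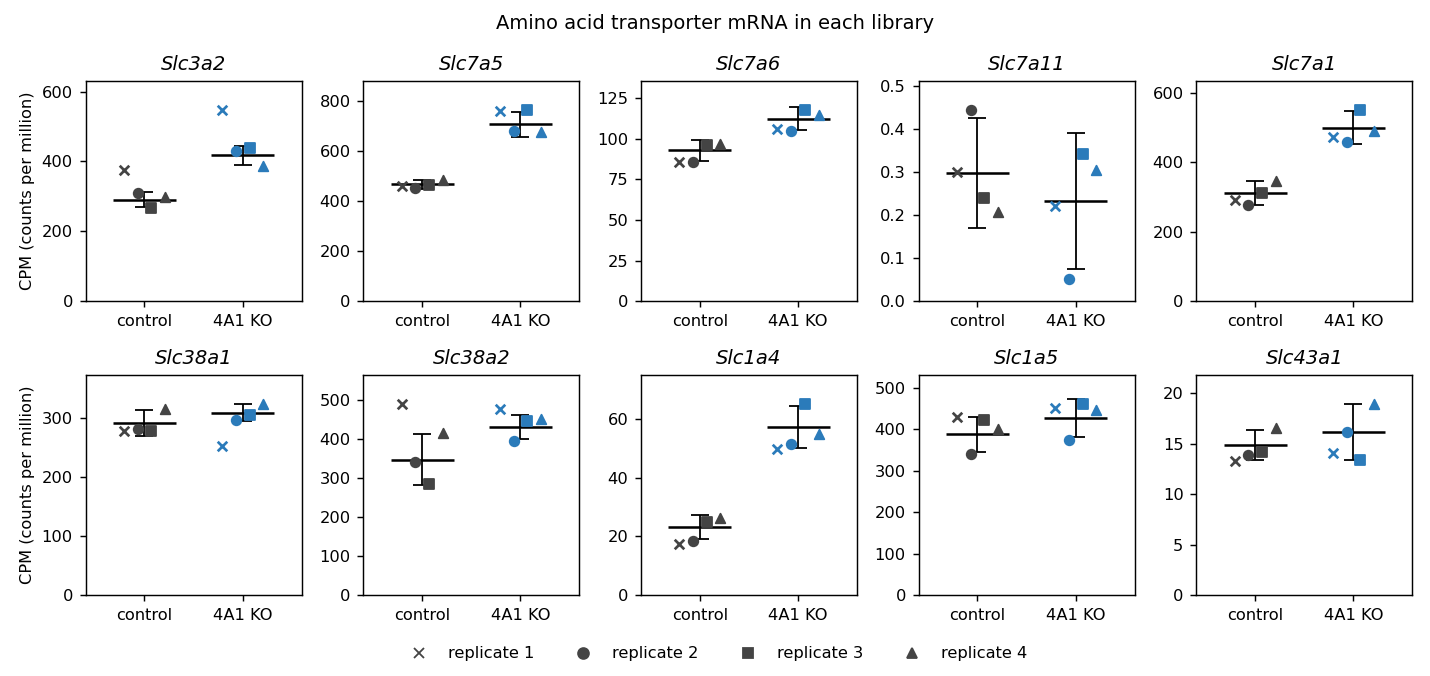
CPM of each of the 10 transporters (vertical axes, linear and starting at 0) by genotype (horizontal axes), one panel per gene. Symbols are libraries 1 to 4, and bars show the mean and SD of replicates 2 to 4. The genotypes were separate for Slc3a2, Slc7a5, Slc7a6, Slc7a1 and Slc1a4 and overlapped for the other 5.

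Slc7a1 (chr5:148264220-148336848, minus strand, 13 exons, ENSMUSG00000041313) encodes CAT1, the main importer of arginine, lysine and ornithine in many cells. Control libraries had 292, 278, 313 and 345 CPM, and 4A1 KO libraries had 472, 459, 551 and 489 CPM. The lowest 4A1 KO library was above the highest control library by more than 100 CPM. Slc7a1 increased by 0.68 (SE 0.06, interval 0.55 to 0.82, adjusted p = 3.98e-05), or 1.61-fold, and the pairs ranged from 0.50 in replicate 4 to 0.82 in replicate 3.

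Slc1a4 (chr11:20252180-20282774, minus strand, 8 exons, ENSMUSG00000020142) encodes ASCT1, a sodium-dependent exchanger of alanine, serine, cysteine and threonine. It had 17.3, 18.4, 24.9 and 26.3 CPM in control libraries 1 to 4 and 49.9, 51.3, 65.2 and 55.0 CPM in 4A1 KO libraries 1 to 4. In both genotypes the batch B libraries were higher than the batch A libraries, and within each batch the genotypes were far apart. The pair differences were 1.53, 1.48, 1.39 and 1.06. Slc1a4 had the largest increase of the 10, 1.31 (SE 0.09, interval 1.12 to 1.51, adjusted p = 1.45e-05), or 2.49-fold.

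Its paralog Slc1a5 (chr7:16515265-16532731, plus strand, ENSMUSG00000001918) encodes ASCT2, a major glutamine carrier of proliferating lymphocytes, and differed little. Control libraries had 430.3, 339.6, 422 and 400.4 CPM and 4A1 KO libraries 451, 374, 462 and 446 CPM. The groups overlapped, with replicate 2 lowest in both, yet each 4A1 KO library was above its same-numbered control, by 0.07, 0.14, 0.13 and 0.15. The fitted difference was 0.15 (SE 0.04, interval 0.05 to 0.24, adjusted p = 0.0179). With all 8 libraries it was 0.13 (adjusted p = 0.0517), and without the replicate block the adjusted p was 0.326. It also did not pass without replicate 2 (adjusted p = 0.0659) or without replicate 3 (adjusted p = 0.0563).

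Slc38a2 (chr15:96585266-96597894, minus strand, ENSMUSG00000022462) encodes SNAT2, a sodium-coupled importer of glutamine and alanine known to be induced by amino acid shortage. Control libraries spread widely, at 490.1, 340.3, 285 and 416 CPM, while 4A1 KO libraries had 476, 395, 446 and 451 CPM. Control 1 was the highest of all 8 and control 3 the lowest, so the groups overlapped. The fitted difference was 0.33 (SE 0.09, adjusted p = 0.0123), the pairs ranged from -0.04 in replicate 1 to 0.65 in replicate 3, and without replicate 3 the difference was 0.17. With all 8 libraries it was 0.22 and did not pass (adjusted p = 0.197).

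Slc38a1 (chr15:96469298-96541851, minus strand, ENSMUSG00000023169), which encodes the related importer SNAT1, and Slc43a1 (chr2:84669194-84698315, plus strand, ENSMUSG00000027075), which encodes LAT3, a sodium-independent uniporter of leucine and other large neutral amino acids, completed the set. Slc38a1 had 278, 281, 277 and 315 CPM in control and 251, 297, 305 and 324 CPM in 4A1 KO libraries, and both the lowest and the highest were 4A1 KO. Its difference was 0.09 (interval -0.01 to 0.19, adjusted p = 0.122). Slc43a1 had 13.3, 13.9, 14.2 and 16.6 CPM in control and 14.1, 16.2, 13.4 and 19.0 CPM in 4A1 KO libraries, with a difference of 0.12 (interval -0.09 to 0.33, adjusted p = 0.303). Both intervals end below the fold threshold.

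Over all 8 libraries, 5 of the 10 transporters had CPM that were higher in every 4A1 KO than in every control library, and 0 had the reverse. Among all tested genes 17% were separated upwards and 19.9% downwards. Within same-numbered pairs, which share batch and sex, 6 transporters were higher in 4A1 KO in all 4 pairs, as were 33% of all tested genes, and 8 were higher in pairs 2 to 4, as were 36.8% of all tested genes. With replicate 1 included, the log2 fold changes were 0.53 for Slc3a2, 0.63 for Slc7a5, 0.69 for Slc7a1 and 1.37 for Slc1a4, and all 4 remained called.

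The effect of genotype was also compared between males and females and between batches, as interaction terms of edgeR's test in the 8 libraries (20 tests on the transporters, adjusted over all 14211 genes of that fit). None passed, with an adjusted p of 1.00 in each sex test and 0.999 in each batch test. Over all 14211 genes 0 passed in the sex test and 1 in the batch test, so the transporters did not stand apart. At an unadjusted p under 0.05 stood the sex term of Slc7a5, whose increase was 0.20 larger on the log2 scale in males. So did the batch term of Slc7a11, whose difference was 2.04 higher in batch B on the few counts given above.

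TPM, which the authors computed per transcript length, allow levels to be compared between genes. In control cells Slc3a2 (292 ± 23.0 TPM, SD, n = 3), Slc1a5 (271 ± 34.0) and Slc7a5 (254 ± 15.5) were highest, and the ranges of neighbours in this order overlapped over the 4 libraries. Slc38a2 followed at 139 ± 28.9 TPM, then Slc38a1 at 85.7 ± 7.85 and Slc7a1 at 83.0 ± 10.5, which overlapped. Slc7a6 lay at 52.5 ± 4.68 TPM, Slc43a1 and Slc1a4 overlapped at 11.5 ± 1.45 and 11.2 ± 2.23, and Slc7a11 was at 0.115 ± 0.0304.

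In 4A1 KO cells the order was different. Slc3a2 (423 ± 24.8 TPM) and Slc7a5 (384 ± 30.4 TPM) overlapped each other, and both lay above Slc1a5 (304 ± 40.5 TPM) in every library. Slc7a1 at 133 ± 14.4 TPM was above Slc38a1 at 89.5 ± 6.52 TPM without overlap. Slc1a4, level with Slc43a1 in control cells, was at 27.6 ± 3.71 TPM against 12.4 ± 2.13 TPM for Slc43a1. Slc3a2, Slc7a5 and Slc1a5 held between 66.2% and 72.9% of the summed TPM of the 10 genes in any library. Within that sum the share of Slc7a5 ran from 18.5% to 21.6% in control and from 23.2% to 24.3% in 4A1 KO libraries, and the share of Slc1a5 from 20.5% to 25.3% in control and from 17.3% to 19.96% in 4A1 KO libraries.

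**Figure D3:**
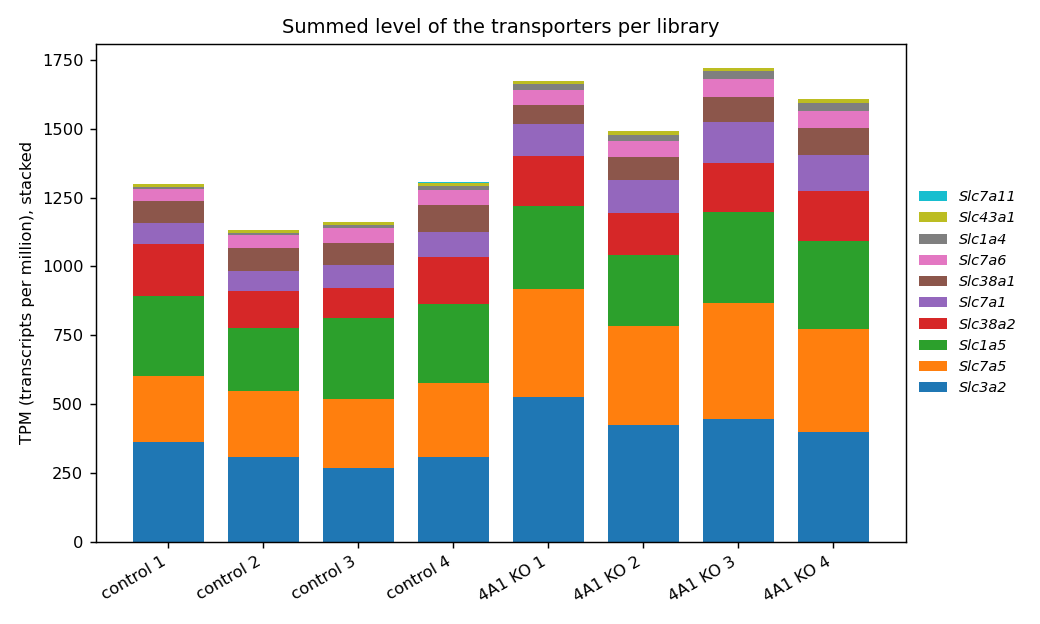
Summed TPM of the 10 transporters (vertical axis, starting at 0) in each of the 8 libraries (horizontal axis), stacked by gene. The control bars reach 1133 to 1305 TPM and the 4A1 KO bars 1491 to 1722 TPM, and Slc3a2, Slc7a5 and Slc1a5 take most of each bar.

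Summed over the 10 genes, TPM were 1299.7, 1133, 1162 and 1305 in control libraries 1 to 4 and 1674, 1491, 1722 and 1607 in 4A1 KO libraries 1 to 4. All 4A1 KO libraries were above all control libraries, with a ratio of means of 1.33. With replicates 2 to 4 alone the ratio was 1.34. Since the genes were chosen with results known, these sums and the ratios that follow are given as descriptions, and their exact p-values are not used. The light chains Slc7a5, Slc7a6 and Slc7a11 together went from 301 ± 19.4 to 447 ± 27.97 TPM (SD, 4 libraries each), a ratio of 1.48, and 1.46 with replicates 2 to 4 alone.

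Heavy and light chain mRNAs were then compared within libraries. The control libraries had 0.987 ± 0.155 light chain TPM per Slc3a2 TPM and the 4A1 KO libraries 1.00 ± 0.116, a difference well within the SDs. Slc38a1 per Slc38a2 was 0.578 ± 0.122 in control and 0.489 ± 0.0687 in 4A1 KO libraries. Over all 8 libraries the genotypes overlapped, but the ratio was lower in 4A1 KO in all 4 same-numbered pairs, and in replicates 2 to 4 the genotypes did not overlap. The ratio of the ASCT paralogs, Slc1a4 per Slc1a5, was 0.0274, 0.0376, 0.0406 and 0.0454 in control and 0.0753, 0.0941, 0.0949 and 0.0840 in 4A1 KO libraries. It did not overlap and was 2.31 times as high in 4A1 KO cells, or 2.21 times with replicates 2 to 4 alone, which restates the increase of Slc1a4 beside the small difference of Slc1a5.

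On log2(TPM + 1), limma gave differences of 1.23 for Slc1a4 (adjusted p = 0.00386), 0.67 for Slc7a1 (0.00584), 0.59 for Slc7a5 (0.00587), 0.53 for Slc3a2 (0.0112) and 0.25 for Slc7a6 (0.0313). These 5 transporters passed, all upwards, where 22.3% of 12976 genes passed upwards and 24.9% downwards. Slc38a2 at 0.32 (adjusted p = 0.0951) and Slc1a5 at 0.16 (adjusted p = 0.0715) did not, and Slc7a11 was under the TPM filter. The call of Slc7a6 was lost when any replicate was left out, with adjusted p from 0.0587 to 0.141.

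Promoter sequences were read for motifs of factors known to act on transporter genes: the C/EBP-ATF response element TGATGNAA bound by ATF4, the E-box CACGTG bound by MYC and by MLX partners, and the antioxidant response element TGACNNNGC bound by NRF2, each on both strands. RefSeq promoters (GRCm38.p6, 250 bases before to 50 after a start site) matched 7 of the 10 transporters. No entry matched Slc7a5, Slc38a1 or Slc1a5. Windows of 30 bases are shown for Slc1a4, the transporter that increased most, and for Slc7a11 and Slc43a1, which were not called. The motif is in capitals, and all are read 5′ to 3′ on the gene's strand.
Slc1a4, chr11:20332699-20332728, minus strand: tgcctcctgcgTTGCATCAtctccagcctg
Slc7a11, chr3:50443651-50443680, minus strand: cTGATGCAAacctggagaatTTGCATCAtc
Slc43a1, chr2:84840247-84840276, plus strand: agggtctccctcCACGTGgcagccgtggga

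Of the 9 member promoters, those of Slc1a4 (bases -4 to 3, with 0 the first transcribed base) and Slc7a11 (bases -66 to -59 and -47 to -40) held TGATGNAA, found in 3.97% of all 32851 promoters. CACGTG was in 1, that of Slc43a1 (bases -64 to -59), and in 7.15% of all. TGACNNNGC was in promoters of Slc7a1, Slc7a6, Slc38a2 and Slc43a1 and in 12.4% of all. The window of Slc3a2 held none of the 3. TGACNNNGC stood in called and in uncalled transporters. The only uncalled transporter with TGATGNAA was Slc7a11, where the few counts left a change in either direction undetectable. A match describes letters only.

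Among the mRNAs of those factors, Nfe2l2, which encodes NRF2, rose from 15.7 ± 1.90 to 33.8 ± 7.65 CPM (log2 fold change 1.10, SE 0.12, adjusted p = 9.14e-05). Mlxip, which encodes the MLX partner MondoA, rose by 0.61 (adjusted p = 6.97e-05). Atf4 was 0.46 higher, from 626 ± 26.2 to 856 ± 44.6 CPM (adjusted p = 1.63e-04), under the fold threshold. Myc lay at 488 ± 175 CPM in control and 463 ± 63.8 CPM in 4A1 KO libraries, with no difference detected (-0.01, adjusted p = 0.939).

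Other genes of amino acid handling, in 7 further lists, did not move in one direction. Of 80 that could be tested 17 increased and 15 decreased, with a median log2 fold change of 0.12. The counts of each list below stand beside the 11.6% of all tested genes that increased and the 13.7% that decreased, and with 8 to 16 genes a list, a count of 1 or 2 in a direction is within about 1 gene of those shares. Of 11 tested among 31 other plasma membrane carriers, 5 increased and 2 decreased (median 0.16). Slc6a9, a glycine carrier, rose from 5.23 ± 1.10 to 22.2 ± 5.68 CPM (2.08, adjusted p = 9.59e-06), and Slc43a2, the LAT4 uniporter related to Slc43a1, from 14.4 ± 0.0168 to 28.3 ± 4.18 CPM (0.97, adjusted p = 5.44e-05). Slc7a3, a further carrier of cationic amino acids, rose by 0.89 (adjusted p = 1.26e-04). The glutamate carrier Slc1a2 (-0.75) and the proline carrier Slc6a20b (-1.56, mean under 1 CPM) fell. The remaining increases, named after their values were seen, were Slc6a20a (1.23) and Slc7a2 (1.45, mean under 1 CPM).

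**Figure D4:**
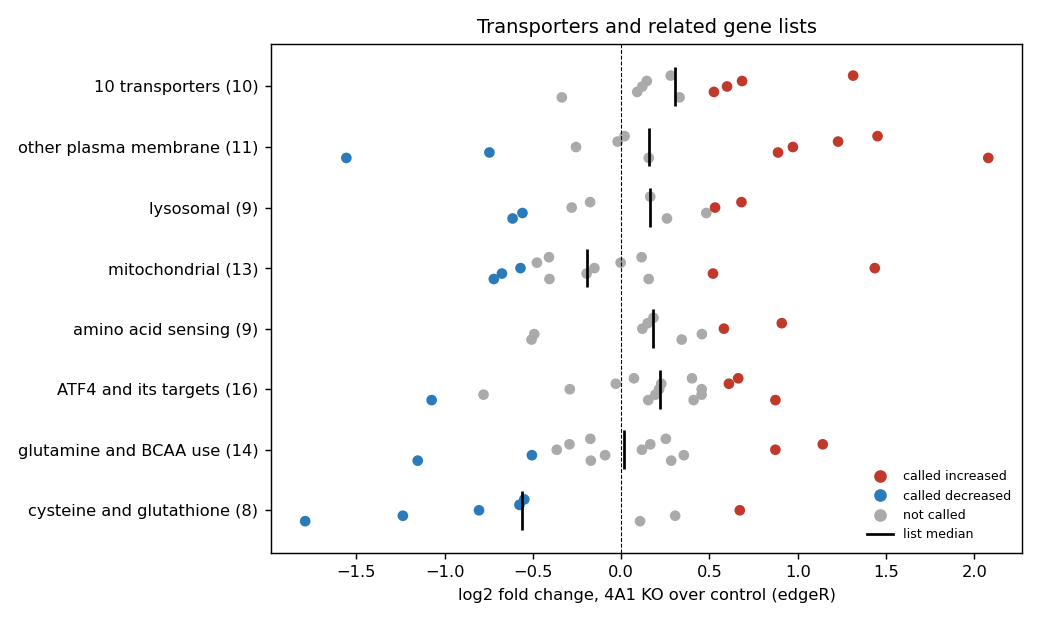
Log2 fold change (4A1 KO over control) of each tested gene in the transporter set and in the 7 other lists, on the horizontal axis, one list per row. Each point is 1 gene (red increased, blue decreased, grey not called), and upright bars are list medians. The transporters have called genes on the right only (4 of 10), and the glutathione genes lie mostly on the left (5 of 8 decreased).

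Of 9 tested carriers of the lysosome, 2 increased and 2 decreased. Slc36a1, which exports small neutral amino acids, rose by 0.68, and Slc38a9, the arginine sensor upstream of mTORC1, by 0.53. Slc36a4 (-0.61) and the cationic exporter Slc66a1 (-0.56) fell. In mitochondria the aspartate and glutamate carriers Slc25a12 (-0.72, adjusted p = 4.48e-05) and Slc25a13 (-0.67) fell, while the glutamate carriers Slc25a22 (0.52) and Slc25a18 (1.44, mean under 1 CPM) rose. With Sfxn3, a serine carrier named after its value was seen (-0.57), 3 of 13 decreased and 2 increased (median -0.20). Among 9 genes of amino acid sensing 2 increased and 0 decreased: Bmt2, also called Samtor, a sensor of S-adenosylmethionine (0.91), and Lars, the leucyl-tRNA synthetase (0.58, adjusted p = 2.95e-05).

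Of 16 tested genes of the ATF4 list, 3 increased and 1 decreased (median 0.22). Atf5 rose by 0.87 (adjusted p = 1.53e-05), Asns, asparagine synthetase, by 0.61 (adjusted p = 8.86e-05) and Atf3 by 0.66 (adjusted p = 0.0308). Chac1, which degrades glutathione, fell by 1.07 (adjusted p = 2.87e-04). Of 14 genes that use glutamine or branched-chain amino acids, 2 increased and 2 decreased. Bcat1, which transaminates the leucine that LAT1 carries, rose from 72.8 ± 4.64 to 133 ± 10.4 CPM (0.87, adjusted p = 1.47e-05), and Gpt2 rose by 1.14, while Got2 (-0.51) and Gls2 (-1.15, mean under 1 CPM) fell.

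In the list of cysteine and glutathione metabolism, 5 of 8 tested genes decreased and 1 increased (median -0.56), where 13.7% of all tested genes decreased and 11.6% increased. Cth, which makes cysteine from cystathionine, went from 4.36 ± 0.796 to 1.27 ± 0.452 CPM (-1.79, adjusted p = 1.86e-04), and Gsr, glutathione reductase, fell by 0.58 (adjusted p = 2.75e-04). Cbs (-1.24), Gpx4 (-0.80) and Gss (-0.55), named after their values were seen, also fell. Gclc, the catalytic subunit of the first step of glutathione synthesis, rose by 0.67 (adjusted p = 4.38e-05).

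At an adjusted p under 0.05 and any fold change, 26.3% of all tested genes were higher and 26.7% lower. The plasma membrane list had 5 of 11 genes higher and 3 lower, the lysosomal list 4 of 9 and 3, the mitochondrial list 2 of 13 and 7 and the sensing list 6 of 9 and 1. The ATF4 list had 9 of 16 higher and 2 lower, the glutamine list 6 of 14 and 5 and the glutathione list 2 of 8 and 5. Differences between the lists were not tested.

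Among the genes whose log2 CPM over the 8 libraries were most like those of Slc7a5 were Gars (Pearson r = 0.997), Ddx27 (0.996), Riok1 (0.993) and Dpagt1 (0.993). Of the other transporters, Slc7a1 came closest to Slc7a5 (r = 0.973, rank 152 of the tested genes), then Slc1a4 (0.962, rank 284). Slc7a6 (0.90, rank 1112) and Slc3a2 (0.852, rank 1696) followed. The rest ran from 0.54 for Slc1a5 to -0.28 for Slc7a11. The genes most like Slc3a2 were Eif1 (0.989), Siah2 (0.988), Gm46620 (0.987), Tgif2 (0.985) and Lmbr1l (0.984). These are descriptions over 8 libraries of both genotypes, both batches and both sexes. Each r therefore includes the difference between genotypes, and genes that differ in the same direction appear alike.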

How the data were processed

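RNA sequencing libraries of splenic B cells (4 control, 4 4A1 KO) were grouped by the genotype, sex, batch and title in their labels. The authors trimmed reads with Trim Galore 0.6.6, mapped them to GRCm39 with HISAT2 2.1.0 and deposited raw counts made with Seqmonk over merged isoforms, strand-specifically. The authors deposited TPM computed with StringTie 2.1.1. How reads with several matches were counted is not given in the sources used here.

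The count test was edgeR 4.0.16 under R 4.3.3, with filterByExpr by genotype, TMM normalization and a quasi-likelihood fit with batch, sex and genotype on replicates 2 to 4, two-sided, with Benjamini-Hochberg adjustment over 14218 genes. In these 6 libraries batch and sex are the same as a replicate block. The numbers pair libraries through batch and sex in the labels, and deviations of same-numbered libraries correlated at 0.488, 0.403 and 0.333. The mean for other pairs was -0.203. Deviations from a genotype mean cancel within the genotype, so that mean follows from the same-numbered values and is no separate contrast. CPM are counts scaled to each library's total. For TPM, limma 3.58.1 was run on log2(TPM + 1), with the same covariates, where a gene's mean reached 1 TPM, and exact permutation tests of the sums and ratios were run but are not used in the text. Libraries held 31727557 to 43210858 counts. Errors are SDs between libraries, each from separate mice of the study, and no per-library intervals were computed. Transcript matches of at least 100 nucleotides at 95% identity were found with blastn 2.17.0. The search kept a limited number of matched transcripts, so a large count of matched genes is a minimum. The code was tested on simulated data. The limma test first recovered too few small changes there and met its requirement only with larger ones, so it may miss small differences in TPM.

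The transporters and lists were chosen with earlier results of these data known. Named are the 10 transporters, Eif4a1, Eif4a2, Myc, Atf4, Nfe2l2, Mlxip, in each list the 3 called genes with the smallest adjusted p and those called against most of the list, and the 5 genes most like Slc7a5 and Slc3a2. A gene that this rule names is not reported here. Further called genes of the plasma membrane, lysosomal, mitochondrial, glutamine and glutathione lists were named after their values were seen. Alternatives were DESeq2's size factors, upper quartile scaling, DESeq2 1.42.0 with and without shrinkage, no filter, edgeR's glmTreat, a TPM pseudocount of 0.1, no block, all 8 libraries, leaving out each replicate and, chosen after seeing the data, library totals without TMM. Each of 5 marker lists (B cell, fibroblast, T cell, myeloid, plasma cell) was summed in TPM. T cell markers ran from 1.03 to 2.65 in control and 0.779 to 1.57 in 4A1 KO libraries, myeloid markers from 2.84 to 5.32 and 4.02 to 6.47, and plasma cell markers from 215 to 330.5 and 196 to 261.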

Additional observations from a re-analysis of the deposited data

Results flagged for a closer look

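In groups of 4 libraries, 4 of 50 sets of transporter values had 1 library farther from the others than Dixon's criterion allows, where chance gives about 1 in 20, or 2.5. Slc38a1 was highest in control 4, at 315 CPM against 281 in the next library (a gap of 0.901 of the range), and the same library was highest in TPM, at 94.7 against 81.2 (0.908). Slc38a2 was lowest in 4A1 KO 2, at 154 TPM against 179 in the next library (0.888), and Slc1a5 was lowest in control 2, at 232 TPM against 287 (0.883). None of these 3 genes was called between genotypes.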

How the results depend on the processing

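Of 120 fold changes of the transporters under alternatives, 116 kept their direction and side of the threshold, 3 were no longer called and 1 reversed (Slc7a11, which ran from -0.82 to 0.53 when each replicate was left out). The number of transporters increased was 4 in all but 2 settings: 3 without replicate 3 (Slc3a2 at 0.43) and 2 with edgeR's glmTreat, which tests against the fold threshold itself (adjusted p = 0.593 for Slc3a2 and 0.0933 for Slc7a5). With glmTreat, 640 genes increased and 987 decreased over all, and 9 and 5 in the 7 lists. DESeq2 with shrinkage called 1089 genes increased. Without the replicate block the same 4 transporters were called, with 1342 genes increased and 1658 decreased, while Slc38a2 (adjusted p = 0.0863) and Slc1a5 (adjusted p = 0.326) no longer passed. Of 63 TPM differences 57 were unaltered in this sense. Slc7a6 did not pass without the block (adjusted p = 0.0990) or without any one replicate, Slc1a5 passed with no TPM filter (adjusted p = 0.0380), and Slc38a1 reversed with 8 libraries (-0.0016).

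The TPM ratios, given as descriptions, changed little in size. With 6 libraries they were 1.34 for the sum of 10, 1.46 for light chains and 2.21 for Slc1a4 per Slc1a5. Leaving out each replicate gave 1.28 to 1.36, 1.44 to 1.54 and 2.21 to 2.50. Exact sign flips of the 4 pairs, the replicate block for these ratios (1.325, 1.48 and 2.31), bear on the p alone, which was 0.125, the smallest they allow, so they say nothing of the ratios' stability. Causes of these differences between settings were not tested. Few counts limit Slc7a11 and the list genes with a mean under 1 CPM.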
